A study of Mus musculus with 4 samples.

Results

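The genes described here are 9 matrix metalloproteinases (Mmp2, Mmp3, Mmp8, Mmp9, Mmp10, Mmp12, Mmp13, Mmp14 and Mmp15) and Timp1, an inhibitor of these enzymes, in mouse colon tumours and normal colon. The 10 genes were taken from a list of symbols, and each was represented by its probe set annotated to that 1 symbol alone, with the highest mean where a gene had several. A probe set of that kind was found for 9 of the 10 genes, 1 each, out of 22180 genes measured. Mmp15 had no probe set annotated to it, alone or with other genes, and was not analysed here. RNA was profiled on 4 whole-transcript arrays, 1 for each group, so no group had a replicate. The groups were tumour of Dmt1F/F mice, tumour of Dmt1+/+ mice, normal colon of Dmt1F/F mice and normal colon of Dmt1+/+ mice, called F/F tumour, wild-type tumour, F/F normal and wild-type normal below. All mice were C57BL/6, aged 3 months, carried ApcF/+ and had the label CDX2, which is not spelled out. F conventionally marks an allele flanked by loxP sites, and the labels do not say what drives the recombinase or whether the F allele had been recombined in the sampled cells. Dmt1, with the gene symbol Slc11a2, encodes an iron importer, and Apc restrains Wnt signalling and is commonly lost in intestinal tumours. The series' design text gives 4 F/F and 7 wild-type animals, and the labels do not tie them to arrays or say whether pools were made.

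Matrix metalloproteinases are zinc-dependent endopeptidases that cleave collagens, proteoglycans and other matrix proteins, and also release or inactivate growth factors and chemokines. Most are secreted as inactive proenzymes that other proteases convert to the active form, and a few are anchored in the cell membrane. The tissue inhibitors of metalloproteinases, the Timp proteins, bind their active sites. In intestinal tumours the enzymes are made largely by stromal fibroblasts and by infiltrating macrophages and neutrophils, and some of them by the tumour epithelium itself.

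Values are log2 signals after RMA, the normalization used by the authors, and a difference of 1 is 2-fold. Levels are compared between arrays for 1 gene at a time and not gene against gene, since each probe set has its own response. Signals summed over a list are also compared between arrays only, and probe sets with high signals weigh most in them. The 1 common level given below takes no account of these responses. The log2 medians over all probe sets were 4.34 on both tumour arrays, against 4.27 on the F/F normal array and 4.30 on the wild-type normal array. The arrays carry no detection call, so the median gene level of 4.67 was used as a stand-in for background, and the size and direction of differences below it are uncertain. Slc11a2 was at 6.19 in F/F tumour and 6.64 in wild-type tumour, and at 6.13 in F/F normal and 6.51 in wild-type normal. All 12 colon epithelium markers were above 4.67 on every array, but their levels differed. Of the 12, limma called 4 as fallen in tumour, against 8.23% of all genes tested. Against normal colon, wild-type mice had 5 lower by 2-fold or more and F/F mice 1, where 680 and 506 of all 22180 genes were. Between the tumour arrays 10 of the 12 were higher in F/F, where 10544 of all genes were. By 2-fold or more 4 were higher, where 225 of all genes were. In tumour 10 of 11 Wnt target genes rose (limma, adjusted over all genes tested), against 11.0% of all genes tested. Of the 11, 3 reached 4.67 on tumour arrays only. Lgr5 had 8.39 and 8.91 on the F/F and wild-type tumour arrays, against 5.20 and 5.46 on the F/F and wild-type normal arrays. The normal arrays differed in Hox genes that mark distal position: 6 of 7 were lower in F/F normal than in wild-type normal, against 46.0% of all genes. Hoxd13 differed most, with 3.02 in F/F normal and 6.86 in wild-type normal. On the F/F normal array 5 of the 7 were below 4.67, so the sizes of those differences are uncertain. The position of the sampled pieces along the colon is not given, so position and genotype or tumour cannot be told apart. In RNA of whole tissue, fewer cells of a type and less RNA per cell cannot be told apart either.

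All 9 measured genes had higher signals in tumour than in normal colon. Both tumour arrays lay above both normal arrays for each of the 9 genes, where 28.1% of all 22180 genes had that order. The difference reached 2-fold in 6 of 9 genes in F/F mice, against 3.45% of all genes, and in 8 of 9 genes in wild-type mice, against 3.77% of all genes. The median difference over the 9 genes was 1.52 in F/F mice and 2.03 in wild-type mice, and the medians over all genes were -0.03 and 0.00. The differences spanned 0.71 for Mmp3 to 5.13 for Mmp13 in F/F mice, and 0.99 for Mmp2 to 3.99 for Mmp10 in wild-type mice. The genes had been listed with earlier results of these arrays known, so these counts describe the list and are not independent evidence of its direction.

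**Figure D1:**
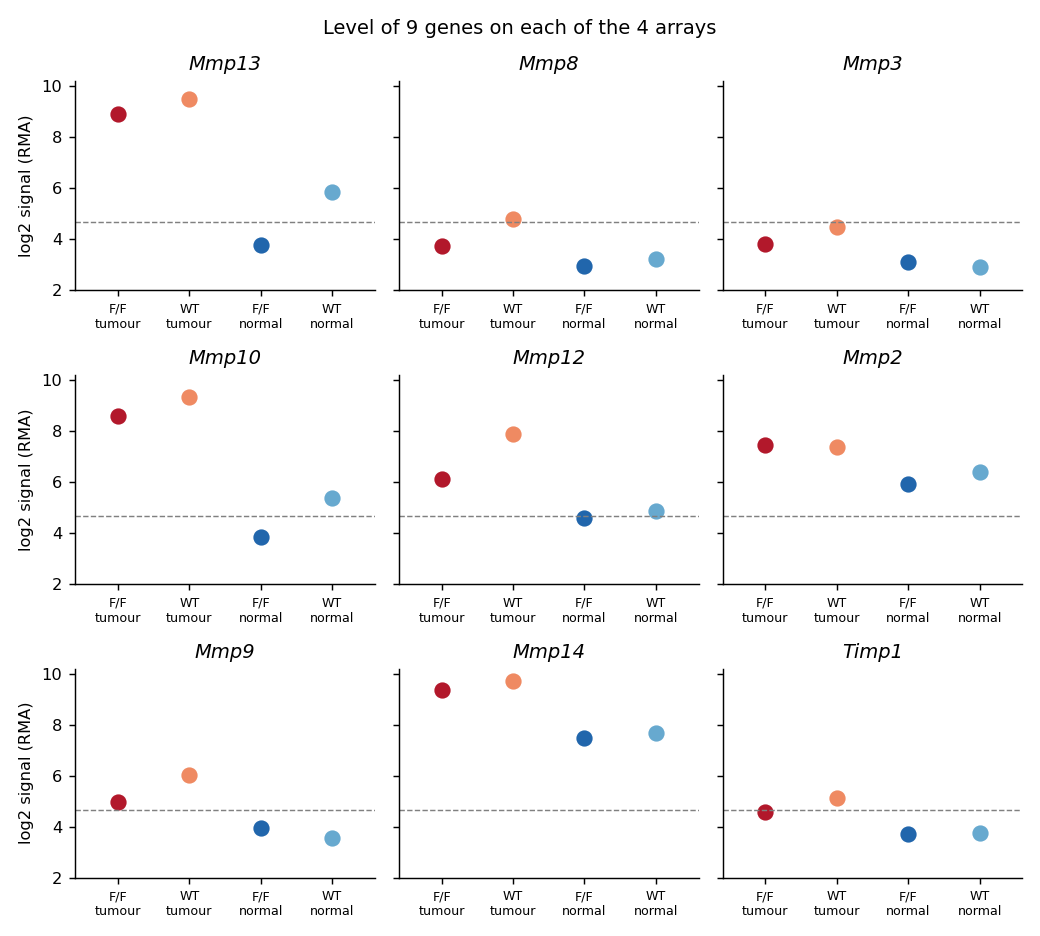
Log2 RMA signal (y axis) of the 9 measured genes on the F/F tumour, wild-type tumour, F/F normal and wild-type normal arrays (x axis, 1 array each, WT is wild-type). The dashed line is the median gene level of 4.67. In every panel both tumour points lie above both normal points, and Mmp3 lies below the line on all arrays.

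One model over the 4 arrays, with tissue and genotype as additive terms, gave the only test of tumour against normal colon (limma, Benjamini-Hochberg adjustment over 12060 genes at 0.05). It was fitted to genes whose highest value reached 4.67, which 8 of the 10 genes did, Mmp3 staying below on all arrays. Of these 8, 6 rose in tumour (Mmp2, Mmp10, Mmp12, Mmp13, Mmp14 and Timp1), against 11.0% of all genes tested, and none fell, against 8.23%. Mmp8, Mmp9 and Timp1 reached 4.67 on tumour arrays only and so had to differ to be tested. Without the filter on level, limma tested all 9 measured genes and called 8 of them, all but Mmp3, against 5.31% of 22180 genes. Its only residual degree of freedom (1) is the interaction, so a call does not show a like difference in both genotypes. With 1 array left out and tissue as the only term, 8 of the 8 tested genes passed without the F/F tumour array and 4 without the wild-type normal array (Mmp2, Mmp10, Mmp13 and Mmp14). Only Mmp14 passed without the wild-type tumour array, and none passed without the F/F normal array, where limma called only 38 genes as risen in all.

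**Figure D2:**
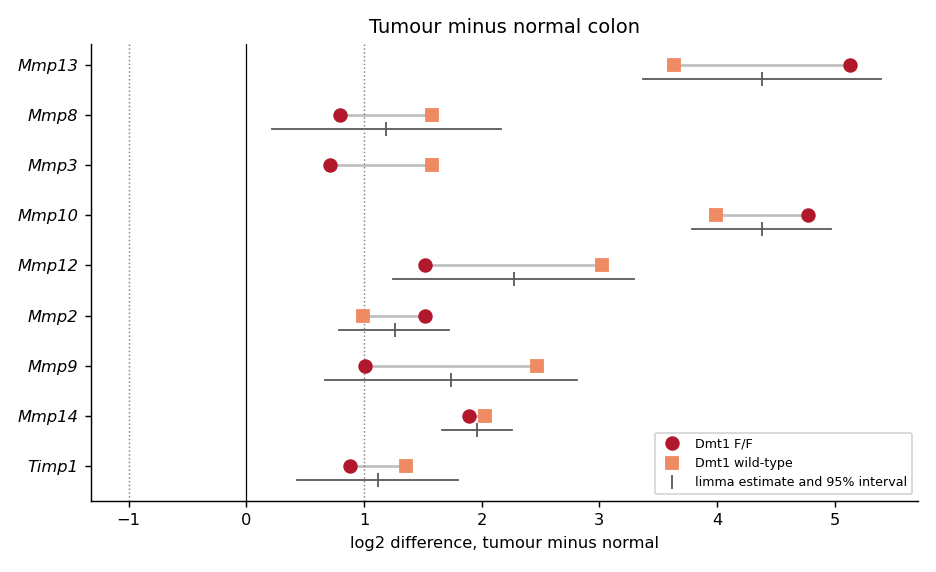
Log2 difference of tumour minus normal colon (x axis) for each gene (y axis) in F/F mice (circles) and wild-type mice (squares), 1 array against 1 array, with the limma estimate over both genotypes and its 95% interval below, except for Mmp3, which was not kept by the filter. Dotted lines mark 2-fold. Mmp13 and Mmp10 stand furthest to the right in both genotypes, and Mmp14 has nearly the same difference in both.

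Mmp13, the interstitial collagenase that cleaves fibrillar collagens in mice, showed the largest difference of the 9 genes in F/F mice. It had 8.89 on the F/F tumour array and 9.49 on the wild-type tumour array, against 3.76 on the F/F normal array and 5.86 on the wild-type normal array. The tumour arrays were close to each other, while the normal arrays were far apart and the F/F one was below 4.67, so that the size of the difference in F/F mice is uncertain. The difference was 5.13 in F/F mice (35.0-fold) and 3.63 in wild-type mice (12.4-fold), and over both genotypes Mmp13 rose by 4.38 (SE 0.38, limma adjusted p = 0.0101, higher in 2 of 2 tumour arrays). With 1 array left out, the estimate ran over 3.32 to 5.43 and the adjusted p over 0.0166 to 0.0992, the lowest estimate being that without the F/F normal array. Set against the wild-type normal array, the F/F tumour had a difference of 3.02, smaller than in wild-type mice, so the order of the genotypes in this gene rests on the F/F normal array.

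Mmp10, stromelysin-2, which degrades proteoglycans, laminin and fibronectin and activates procollagenases, had the same fitted difference. Its signal was 8.60 on the F/F tumour array and 9.35 on the wild-type tumour array, against 3.83 on the F/F normal array and 5.36 on the wild-type normal array. As for Mmp13, the groups did not overlap and the lowest array was F/F normal, which was below 4.67, so the size of the difference in F/F mice is uncertain. The difference was 4.77 in F/F mice (27.3-fold) and 3.99 in wild-type mice (15.9-fold), and Mmp10 rose by 4.38 over both genotypes (SE 0.22, limma adjusted p = 0.00403, higher in 2 of 2 tumour arrays). The adjusted p ran over 0.0160 to 0.0636 with 1 array left out, passing without either the F/F tumour or the wild-type normal array. Among the 12060 genes tested, Mmp10 and Mmp13 held ranks 7 and 8 by the fitted difference, which includes that array. Set against the wild-type normal array, the F/F tumour difference of Mmp10 was 3.24.

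Because Mmp13 and Mmp10 moved together, the bases before the start sites of the measured genes were read from RefSeq (GRCm38.p6), which held 9 start sites for 8 of the 10 genes, those of Mmp2 and Mmp9 not being among them. The motif TGAGTCA, read on both strands (TGACTCA on the other), is the recognition sequence of AP-1, the Fos and Jun dimer known to act on metalloproteinase promoters. In the 250 bases before the start it was present in Mmp13, Mmp10, Mmp3 and at 1 of the 2 start sites of Mmp12, and was not found in Mmp8, Mmp14, Mmp15 and Timp1. Of 32851 promoters of that length, 4.46% held it. The 90 bases before the start are shown for 4 start sites with the motif and for Mmp8, the neighbouring gene without it. All lie on the plus strand, and capitals mark the AP-1 motif and the letters TATAAA on the strand shown.
Mmp13, chr9:7272424-7272513: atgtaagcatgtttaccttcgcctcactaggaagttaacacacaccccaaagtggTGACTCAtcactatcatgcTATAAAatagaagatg
Mmp10, chr9:7502252-7502341: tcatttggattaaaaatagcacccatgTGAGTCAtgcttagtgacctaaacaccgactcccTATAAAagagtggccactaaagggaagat
Mmp3, chr9:7445732-7445821: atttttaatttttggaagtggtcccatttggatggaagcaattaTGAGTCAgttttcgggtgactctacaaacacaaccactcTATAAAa
Mmp12, chr9:7347284-7347373: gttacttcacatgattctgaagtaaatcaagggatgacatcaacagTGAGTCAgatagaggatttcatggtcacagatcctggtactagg
Mmp8, chr9:7558339-7558428: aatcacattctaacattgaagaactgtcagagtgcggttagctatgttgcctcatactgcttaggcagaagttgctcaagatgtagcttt
The motif began 35 bases before the start in Mmp13, 63 in Mmp10, 46 in Mmp3 and 44 at the second start of Mmp12. TATAAA on either strand was present in Mmp13, Mmp10 and Mmp3 and in 12.4% of all promoters. It began 16 bases before the start in Mmp13, 29 in Mmp10 and 7 in Mmp3, and whether it acts as a TATA box was not tested. The Ets motif AGGAAG, on either strand, was in 6 of the 9 start sites, and in 29.5% of all promoters. A Runx motif, ACCACA on either strand, was in Mmp13 and Mmp14 and in 14.0% of all promoters. These matches describe the letters of the windows and are not evidence of binding, and a window without a match says nothing of the factor.

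Mmp3, stromelysin-1, a broad matrix protease that also activates other proenzymes, stayed near background. It had 3.80 in F/F tumour and 4.49 in wild-type tumour, against 3.09 in F/F normal and 2.91 in wild-type normal. All 4 values were below 4.67, so the differences of 0.71 in F/F mice and 1.58 in wild-type mice are uncertain. In the fit without a filter the difference was 1.14 (SE 0.25, limma adjusted p = 0.0545), which did not pass.

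Mmp12, the elastase typical of macrophages, was highest on the wild-type tumour array. It had 6.11 in F/F tumour and 7.89 in wild-type tumour, against 4.59 in F/F normal and 4.87 in wild-type normal. The normal arrays were close to each other and to 4.67, and the F/F tumour array lay between them and the wild-type tumour. The difference was 1.52 in F/F mice (2.86-fold) and 3.02 in wild-type mice (8.11-fold). Mmp12 rose by 2.27 over both genotypes (SE 0.38, limma adjusted p = 0.0287, higher in 2 of 2 tumour arrays). The call was lost without the genotype term (adjusted p = 0.0553) and, with 1 array left out, held only without the F/F tumour array, the adjusted p running over 0.00701 to 0.196 and the estimate over 1.38 to 3.16.

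Mmp8 and Mmp9 are stored in the granules of neutrophils, Mmp8 being the neutrophil collagenase and Mmp9 gelatinase B, which macrophages also make. Mmp8 had 3.75 in F/F tumour and 4.79 in wild-type tumour, against 2.95 in F/F normal and 3.21 in wild-type normal. Only the wild-type tumour array exceeded 4.67. Its fitted difference of 1.19 (SE 0.36, limma adjusted p = 0.0860) did not pass, and it passed without the filter on level (adjusted p = 0.0438). Mmp9 had 4.96 in F/F tumour and 6.04 in wild-type tumour, against 3.95 in F/F normal and 3.57 in wild-type normal. Both tumour arrays exceeded 4.67 and both normal arrays lay below it. The difference was 1.01 in F/F mice (2.01-fold) and 2.47 in wild-type mice (5.55-fold), with a fitted difference of 1.74 (SE 0.40, limma adjusted p = 0.0505), just outside the threshold. Over 10 settings, that as deposited among them, the adjusted p of Mmp9 ran over 0.0165 to 0.0630 and was inside the threshold in 6.

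Mmp2, gelatinase A, a product of fibroblasts, and Mmp14, the membrane-bound enzyme that activates pro-Mmp2 and cleaves collagen at the cell surface, were above 4.67 on all arrays. Mmp2 had 7.43 in F/F tumour and 7.38 in wild-type tumour, against 5.91 in F/F normal and 6.39 in wild-type normal. The tumour arrays were almost equal, and the normal arrays were apart by 0.49. Mmp2 rose by 1.26 over both genotypes (SE 0.17, limma adjusted p = 0.0211, higher in 2 of 2 tumour arrays), by 1.52 in F/F mice and 0.99 in wild-type mice as single differences. Without the F/F normal array the estimate was 1.01 (adjusted p = 0.0948), and without the wild-type tumour array 1.28 (adjusted p = 0.0988).

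Mmp14 had 9.36 in F/F tumour and 9.72 in wild-type tumour, against 7.48 in F/F normal and 7.69 in wild-type normal. Arrays of the same tissue were within 0.36 of each other. The difference was 1.89 in F/F mice (3.70-fold) and 2.03 in wild-type mice (4.08-fold), and Mmp14 rose by 1.96 (SE 0.11, limma adjusted p = 0.00510, higher in 2 of 2 tumour arrays). It was the gene of the list with the smallest gap between the genotypes' differences, -0.14 for F/F minus wild-type. The call was lost only without the F/F normal array among the fits that left out 1 array (1.85, adjusted p = 0.0693).

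Timp1, the inducible secreted inhibitor that binds most of these enzymes but Mmp14 poorly, had low signals. It had 4.58 in F/F tumour and 5.11 in wild-type tumour, against 3.70 in F/F normal and 3.75 in wild-type normal. The normal arrays were nearly equal, and only the wild-type tumour array exceeded 4.67. The difference was 0.88 in F/F mice (1.84-fold) and 1.36 in wild-type mice (2.56-fold). Timp1 rose by 1.12 over both genotypes (SE 0.26, limma adjusted p = 0.050, inside the threshold only beyond the digits shown, higher in 2 of 2 tumour arrays). Quantile normalization moved it outside (adjusted p = 0.0531), and it passed only without the F/F tumour array among the fits that left out 1 array (adjusted p 0.0370 to 0.184).

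Of 5 other inhibitors, 3 were kept by the filter and 2 of these rose, against 11.0% of all genes tested. Without the filter 1 of the 5 rose, against 5.31% of all genes. Timp3, which is bound to the matrix, rose by 1.35 (SE 0.15, limma adjusted p = 0.0154), with 7.11 in F/F tumour and 7.26 in wild-type tumour, against 5.56 in F/F normal and 6.10 in wild-type normal. Timp2, which with Mmp14 takes part in the activation of pro-Mmp2, rose by 0.62 (SE 0.13, limma adjusted p = 0.0408). Its single differences were 0.50 in F/F mice and 0.75 in wild-type mice, and it did not pass without the filter (limma adjusted p = 0.0530). Reck, a membrane-anchored inhibitor, had a difference of -0.26 (limma adjusted p = 0.470). Timp4 and A2m stayed below 4.67 on all arrays.

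The Dmt1 genotypes were compared within each tissue, 1 array against 1 array, which allows no test. In tumour, 8 of the 9 genes had lower signals in F/F than in wild-type, where 52.4% of all 22180 genes did, and the median difference over the 9 genes was -0.69 against -0.01 over all genes. Mmp12 (-1.78), Mmp9 (-1.08) and Mmp8 (-1.05) were lower by 2-fold or more, against 0.325% of all genes. Mmp10 (-0.75), Mmp3 (-0.69), Mmp13 (-0.60), Timp1 (-0.53) and Mmp14 (-0.36) followed, and Mmp2 had 0.05. For Mmp8 and Timp1 the F/F tumour array was below 4.67, and for Mmp3 both tumour arrays were. The sizes of these differences are therefore uncertain, and for Mmp3, whose value is the median, the direction is too. Only 0.0663% of the 12060 genes kept by the filter had a difference as low as that of Mmp12.

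In normal colon, 7 of the 9 genes had lower signals in F/F, where 46.0% of all genes did, and 2 of them were lower by 2-fold or more, against 0.537% of all genes. These were Mmp13 (-2.11) and Mmp10 (-1.53), the pair that had stood out in tumour against normal colon, and as both were below 4.67 on the F/F normal array the sizes are uncertain. Mmp2 followed with -0.49, Mmp12 with -0.28, Mmp8 with -0.26, Mmp14 with -0.21 and Timp1 with -0.05, and Mmp9 (0.38) and Mmp3 (0.18) were higher. The members past 2-fold were thus Mmp12, Mmp9 and Mmp8 in tumour and Mmp13 and Mmp10 in normal colon, a split that depends on the cutoff. Mmp10 and Mmp13 were low in tumour too, with 1.43% and 2.64% of the 12060 kept genes at or below them. The share of all genes past 2-fold in both tissues was not computed, and the contrast was not tested. Values of Mmp3, Mmp8, Mmp9 and Timp1 were below 4.67 on both normal arrays, and that of Mmp12 on the F/F normal array.

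**Figure D3:**
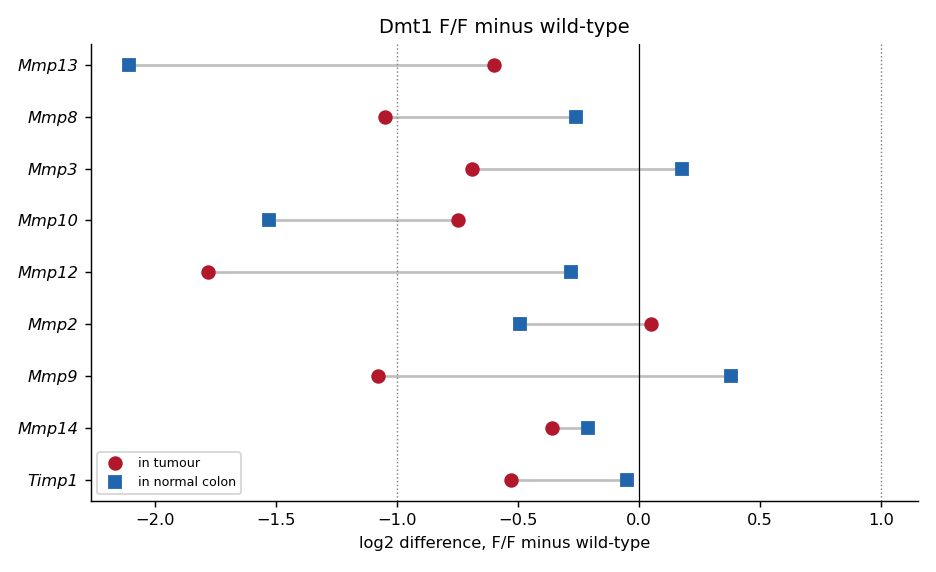
Log2 difference of F/F minus wild-type (x axis) for each gene (y axis) in tumour (circles) and normal colon (squares), 1 array against 1 array. Dotted lines mark 2-fold. Mmp12, Mmp9 and Mmp8 lie below -1 in tumour, and Mmp13 and Mmp10 below -1 in normal colon.

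Over both tissues, limma called no gene at all for genotype (0% of 12060, and 8.22% at an unadjusted p below 0.05). The 8 genes tested all had estimates below 0, from -0.22 for Mmp2 to -1.36 for Mmp13 (SE 0.38, limma adjusted p = 0.564). The share of all 12060 genes with an estimate below 0 was not computed. Mmp8 and Timp1 were kept through the wild-type tumour array alone, so the filter favoured an estimate below 0 for them. Mmp10 had -1.14 (SE 0.22) with an adjusted p of 0.523 and an unadjusted p of 0.00518. Mmp12 had -1.03 (SE 0.38, limma adjusted p = 0.605) with a 95% interval of -2.05 to -0.01. Mmp14 had -0.29 (SE 0.11, limma adjusted p = 0.629) with an interval of -0.59 to 0.02. Tumour and normal colon may have been taken from the same mice, in which case the term holds no spread between mice.

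Of the 9 measured genes, 5 lie in the metalloproteinase cluster of chromosome 9, which holds 10 such genes in the RefSeq annotation, in the order Mmp13, Mmp12, Mmp1b, Mmp3, Mmp1a, Mmp10, Mmp8, Mmp27, Mmp20 and Mmp7. Mmp1b and Mmp1a, which lie among the measured 5, and Mmp27 and Mmp20, which lie between Mmp8 and Mmp7, stayed below 4.67 on all arrays, with differences of -0.41 to 0.05 in F/F mice and -0.20 to 0.25 in wild-type mice. Mmp7, matrilysin, an epithelial and Paneth cell enzyme and a Wnt target, had 9.75 in F/F tumour and 10.73 in wild-type tumour, against 6.46 in F/F normal and 7.57 in wild-type normal. It rose by 3.22 (SE 0.11, limma adjusted p = 0.00349), and its F/F minus wild-type difference was -0.98 in tumour and -1.12 in normal colon. In the cluster 7 of 10 genes held the AP-1 motif at a start site, Mmp1a, Mmp1b and Mmp7 besides the 4 genes named above, and none of 12 family genes elsewhere with a promoter entry did. Of all 27025 genes with a promoter entry, 5.16% held it at 1 or more start sites. Mmp1a and Mmp1b thus held the motif with signals of at most 2.83.

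**Figure D4:**
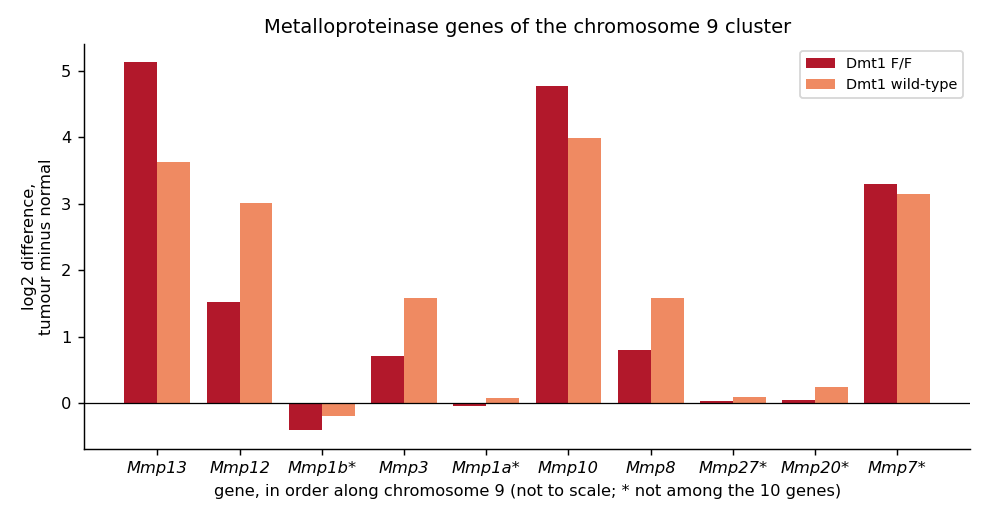
Log2 difference of tumour minus normal colon (y axis) for the 10 metalloproteinase genes of the chromosome 9 cluster, in gene order and not to scale (x axis), in F/F mice (left bars) and wild-type mice (right bars), 1 array against 1 array. Tall bars at Mmp13, Mmp12, Mmp10 and Mmp7 alternate with bars near 0 at Mmp1b, Mmp1a, Mmp27 and Mmp20.

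Of 14 genes on the list of other metalloproteinases, 5 were kept, 1 rose, which was Mmp7, and none fell. Of all genes tested, 11.0% rose and 8.23% fell. Mmp19 (0.57, limma adjusted p = 0.0802), Mmp11 (0.45, adjusted p = 0.178), Mmp23 (-0.18, adjusted p = 0.525) and Mmp28 (-0.44, adjusted p = 0.168) did not pass. The other 9 stayed below 4.67 on all arrays.

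Profiles most like each member were named by the Euclidean distance between log2 values centred on the gene's mean, over 4 arrays, for the 8 members kept. Mmp10 and Mmp13 were near each other (distance 0.42), with the Paneth cell lysozyme Lyz1 at 0.36 from Mmp10 and 0.56 from Mmp13, followed by 9330117O12Rik for Mmp10 and the Wnt inhibitor Notum for Mmp13. Mmp12 was nearest to the myeloid receptor Clec7a (0.43), the chemokine Cxcl3 (0.46) and the neutrophil protein S100a8 (0.49). Mmp9 was nearest to Myrf, Zfp185 and Ascl2 (0.14 to 0.23), and Mmp8 to Steap4, Rgs16 and Lix1 (0.12 to 0.17). Mmp2 was nearest to Rnf157, 2610203C20Rik and the growth factor Bmp4 (0.12 to 0.14), Mmp14 to Mex3a, Slc18a1 and Vash2 (0.10 to 0.13), and Timp1 to Abi2, Trmt112 and Lhpp (0.07 to 0.08). Among 4 arrays many genes share a profile, and the distances are descriptions.

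Proteases that activate metalloproteinases were divided. Of all genes tested, 11.0% rose and 8.23% fell. In the plasminogen list, 3 of 8 genes were kept and 2 of them rose. Plat, tissue plasminogen activator, rose by 3.48 (SE 0.12, limma adjusted p = 0.00349), with 8.65 in F/F tumour and 9.42 in wild-type tumour, against 5.20 in F/F normal and 5.90 in wild-type normal. Plau, urokinase, rose by 1.62 (SE 0.19, limma adjusted p = 0.0165), and its receptor Plaur had 0.80 (adjusted p = 0.104). Plg, the gene of plasminogen itself, was below 4.67 on all arrays. Of 10 activators and partners, 8 were kept, 3 rose and 1 fell. Lipocalin Lcn2, which binds Mmp9, rose by 3.55 (SE 0.16, limma adjusted p = 0.00381), the proprotein convertase Pcsk6 by 1.69 (adjusted p = 0.0112) and the hyaluronan receptor Cd44 by 1.2 (adjusted p = 0.0192). The convertase Pcsk5 fell by 2.22 (limma adjusted p = 0.00901), and Furin, which cleaves pro-Mmp14, had 0.10 (adjusted p = 0.721). Of 16 Adam and Adamts proteases, 11 were kept, 3 rose and none fell. Those that rose were Adam8 at 2.40 (limma adjusted p = 0.00812), Adam12 at 1.62 (adjusted p = 0.0141) and Adamts9 at 0.87 (adjusted p = 0.0296). Of the 11, 4 reached 4.67 on tumour arrays only, Adam8 and Adam12 among them, so the filter fixed their direction. Without the filter 4 of the 15 with a probe set rose, against 5.31% of all genes.

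Of 10 cytokines known to induce metalloproteinases, 7 were kept, 5 rose, against 11.0% of all genes tested, and none fell, against 8.23%. Il1a and Il11 reached 4.67 on tumour arrays only and so had to differ to be tested. Without the filter 5 of 10 rose, against 5.31% of all genes. Il1a rose by 3.02 (limma adjusted p = 0.0254), Il1b by 2.68 (adjusted p = 0.0150), Il11 by 1.66 (adjusted p = 0.0398), Tgfb1 by 1.24 (adjusted p = 0.0146) and Tnf by 1.07 (adjusted p = 0.0217). In tumour all 10, kept or not, had lower signals in F/F than in wild-type, where 52.4% of all genes did, with a median of -0.73. Il1a had -2.48, Il1b -2.02 and Tgfb3 -0.07. Of 15 AP-1, Ets and Runx factors, 12 were kept, 3 rose, against 11.0% of all genes tested, and 1 fell, against 8.23%. Without the filter 2 rose and 1 fell, and Etv5 did not pass (limma adjusted p = 0.0512). Runx1 rose by 1.24 (limma adjusted p = 0.0122), Etv5 by 1.21 (adjusted p = 0.0455) and Ets2 by 1.05 (adjusted p = 0.0273), and Jund fell by 0.69 (adjusted p = 0.0289). The AP-1 genes Jun (0.47, limma adjusted p = 0.123), Junb (0.09, adjusted p = 0.627), Fosb (0.79, adjusted p = 0.0757), Fosl2 (0.00, adjusted p = 0.993) and Fos (-0.19, adjusted p = 0.651) did not pass.

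Markers of cells known to make these enzymes were read from lists. In the neutrophil list 7 of 11 genes were kept and 2 rose, against 11.0% of all genes tested. These were Retnlg, by 3.00 (limma adjusted p = 0.0109), and S100a8, by 1.80 (adjusted p = 0.0491). Of the 7, 6 reached 4.67 on tumour arrays only, Retnlg and S100a8 among them, and 5 on the wild-type tumour array alone, so the filter fixed their direction. Over all 11 genes, kept or not, 9 had lower signals in F/F than in wild-type tumour, where 52.4% of all genes did. Their median was -1.11, and 6 were lower by 2-fold or more, against 0.325% of all genes. In the same comparison Mmp8 had -1.05 and Mmp9 -1.08. Ly6g was higher in F/F tumour (0.83). The summed signal of the list, which Ly6g dominates, was 9.44 in F/F tumour and 9.47 in wild-type tumour, against 7.89 in F/F normal and 8.75 in wild-type normal, as log2 values. The granule genes Mpo, Elane, Camp and Ngp were below 4.67 on every array. In the macrophage list 10 of 12 were kept. Of these, 4 rose (Cd68, Lyz2, C1qb and Itgam, by 0.91 to 1.15), against 11.0% of all genes tested. In tumour 8 of the 11 with a probe set had lower signals in F/F, against 52.4% of all genes. Their median was -0.13 and none was lower by 2-fold, where Mmp12 had -1.78. The summed macrophage signal was 10.22 in F/F tumour and 10.50 in wild-type tumour, against 9.25 in F/F normal and 9.71 in wild-type normal, as log2 values.

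Fibroblast markers were kept in 12 of 12 cases, and 7 rose, against 11.0% of all genes tested. Only Fap, which reached 4.67 on normal arrays only, fell, by 1.02, where 8.23% of all genes tested fell. Without the filter 5 of the 12 rose, against 5.31% of all genes. Collagens Col1a1 and Col3a1 rose by 1.22 (limma adjusted p = 0.0159) and 0.77 (adjusted p = 0.0415), fibronectin Fn1 by 2.11 (adjusted p = 0.00812) and the receptor Pdgfra by 1.06 (adjusted p = 0.0353). The summed fibroblast signal was 11.69 in F/F tumour and 11.95 in wild-type tumour, against 10.67 in F/F normal and 11.22 in wild-type normal. In normal colon 10 of the 12 were lower in F/F, against 46.0% of all genes, with a median of -0.36. This was not particular to the fibroblast list. All 8 smooth muscle (median -0.58), 6 endothelial (-0.20) and 6 B cell (-0.53) markers were lower as well. So were 9 of 11 macrophage (-0.34) and 9 of 11 neutrophil (-0.20) markers, but only 3 of 12 colon epithelium and 3 of 6 squamous markers. The distal Hox list had a median of -0.88 in normal colon, Mmp2 had -0.49, Mmp10 -1.53 and Mmp13 -2.11. Against normal colon of the same genotype, 8 of 8 smooth muscle markers were 2-fold or more lower in wild-type tumour, where 680 of all 22180 genes were. In F/F tumour none was 2-fold lower, but all 8 were lower, with differences of -0.98 to -0.11. Between the tumour arrays all 8 were higher in F/F, with a median of 0.64 and none by 2-fold. B cell markers, kept or not, were higher in F/F than in wild-type tumour in 6 of 6 cases, where 10544 of all 22180 genes were. Their median was 1.68. Of the 5 kept, 2 reached 4.67 on the F/F tumour array alone. Of 6 endothelial markers, 4 were kept and 1, Cdh5, rose by 1.19, and 2 of 7 squamous markers were kept, through tumour arrays only, neither of which passed. The part of these cell types in the differences of the metalloproteinases was not tested.

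**Figure D5:**
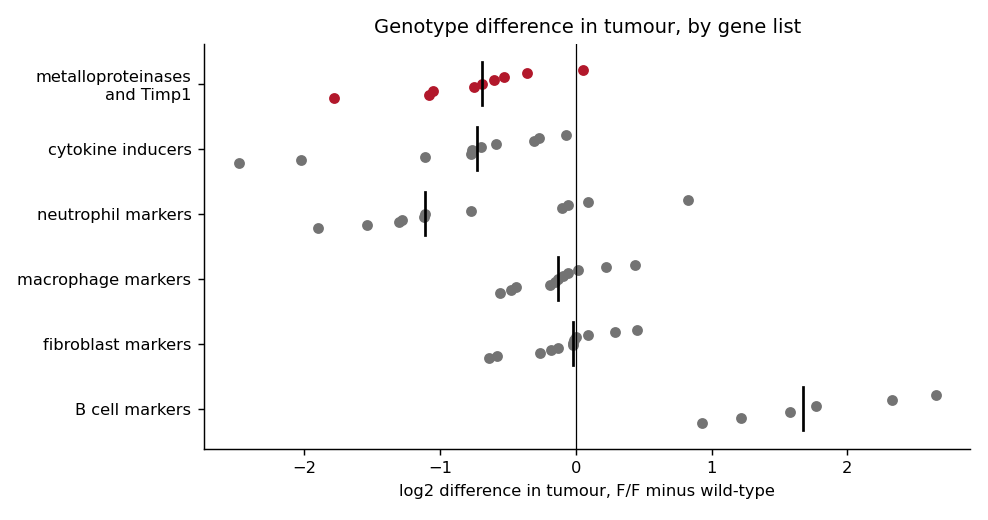
Log2 difference of F/F minus wild-type in tumour (x axis) for the 9 measured genes (top row) and all genes with a probe set of 5 lists (rows below), kept by the filter or not, 1 point a gene, with a bar at each median, 1 array against 1 array. The medians are -0.69 for the 9 genes, -0.73 for cytokine inducers, -1.11 for neutrophil markers, -0.13 for macrophage markers, -0.02 for fibroblast markers and 1.68 for B cell markers.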

How the data were processed

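RNA from 4 groups of mouse colon was hybridised to 4 Affymetrix whole-transcript arrays, 400 ng of biotin-labelled Trizol RNA each, per the labels. The values are log2 signals per probe set as deposited by the authors, and the submitters' processing notes name RMA and the oligo package, with versions not given in the sources used here. Columns of other samples numbered 0. RMA normalizes probes between arrays, and the deposited array medians still differed slightly. With 1 array a group the precision is limited by their number.

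Of 41345 probe sets, 23521 had exactly 1 gene in the platform's annotation, 1814 several and 16010 were not listed. RefSeq (GRCm38.p6) held the gene ID of 23328 of the first. Genes whose highest array reached the median of gene means (log2 4.67) were kept, 12060 of 22180. Signal shared between related genes through similar probes was not tested.

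Tumour and normal colon were compared with limma (version 3.58.1 in R 4.3.3; additive tissue and genotype, eBayes with a trend, prior of 3.4 degrees of freedom), checked on simulated data. Named genes are the listed genes, the 3 nearest profiles of each member that was kept and had a range of at least 1, all family genes, cytokine inducers and AP-1 list genes that pass, and up to 4 genes of each pathway list by size of the tumour difference; others named, such as Furin, Plg, AP-1 factors that did not pass and markers, were chosen after their values were seen. Members and lists were chosen with earlier results of these data known. Promoter sequences are RefSeq's. Alternatives covered scaling, filter, probe set choice, the prior, the genotype term and, added after seeing the data, 1 array left out and another baseline. Where nothing says that samples came from separate animals, p-values measure only the spread between these arrays.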

Additional observations from a re-analysis of the deposited data

Results flagged for a closer look

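For 3 of the 9 genes the genotype difference had opposite signs in tumour and in normal colon, with 1 array on each side. Of all genes, 52.4% were lower in F/F in tumour and 46.0% in normal colon. The share with opposite signs was not computed, so the count is not a result about the list. The difference between the tissues was not tested. Mmp9 was lower in F/F than in wild-type tumour (-1.08) and higher in F/F than in wild-type normal colon (0.38), where both values were below the median gene level. Mmp3 had -0.69 in tumour and 0.18 in normal colon, with all values below that level. Mmp2 had 0.05 in tumour, which is nearly no difference, and -0.49 in normal colon, and was above that level on all arrays.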

How the results depend on the processing

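All 8 genes tested kept a positive tumour difference under all settings tried. Over all genes, limma's counts of 1331 risen and 992 fallen became 1580 fallen with arrays centred on their median and 651 fallen without a genotype term. Centring moved the share of calls that rose to 44.8%, against 57.3% as deposited, and shifted the median gene's difference by -0.12 in F/F mice. With 1 array left out, the count that rose ran over 38 to 905, the count that fell over 11 to 745 and the members that rose over 0 to 8. Set against the wild-type normal array, 253 genes were 2-fold or more lower in F/F tumour, against 460. The cause of these changes was not tested. The fits with 1 array left out had fewer arrays and also no genotype term. No paired analysis was possible because the labels give no replicate numbers that the groups share.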
